A study of Mus musculus with 117 samples.

Results

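Uterus cells that carried Prom1 on their surface were set against uterus cells that did not. Prom1, also called CD133, is a membrane glycoprotein of plasma membrane protrusions, found on the apical side of many epithelia and used in mouse and human as a marker to sort progenitor cells. The comparison takes 7 of the 117 mouse arrays of the study, all from normal uterus of strain C57BL/6: 4 Prom1-positive samples (positive 1 to positive 4) and 3 Prom1-negative samples (negative 1 to negative 3). The tissue had been broken up into single cells, which were then separated on antibody-coated magnetic beads directed at Prom1, and RNA was hybridised to Affymetrix arrays. The other 44 sorted samples came from prostate, lung, intestine, liver and stomach. They gave the background against which a uterus difference was set and entered the fit that estimated the spread of each gene. The genotype, age and stage of the oestrous cycle of the mice are not given in the sources used here. Nor is it given whether the samples came from separate animals. The p-values of the fit rest on the spread within groups, pooled over all 51 sorted samples, and this spread may be technical. They do not measure the spread between the 7 uterus samples alone. The members were all 7 samples whose titles name uterus and a Prom1 status.

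The mouse uterus is lined by a luminal epithelium from which glands grow into a stroma of fibroblasts, with smooth muscle, the myometrium, around both and a mesothelium on the outer face. Ovarian oestrogen and progesterone act on all of these layers, often through signals that pass between epithelium and stroma. Macrophages, dendritic cells, uterine natural killer cells and mast cells reside in the stroma and muscle, and their numbers are known to change over the cycle.

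All values are log2 signals of 1 probe set per gene, and a difference is the mean of the positive samples minus the mean of the negative samples on that scale. A gene was called when the limma adjusted p, over 14081 genes tested in 1 fit of all 51 sorted samples, was under 0.05. By this rule 747 genes (5.31%) were higher and 794 genes (5.64%) were lower in positive cells, 10.9% in all. These shares are the background for all counts of called list members below. The median difference of all genes was 0.03. The values of the 4 positive and 3 negative samples did not overlap for 4385 genes (31.1%), 2262 of them higher (16.1%) and 2123 lower (15.1%) in positive cells, and 4.81% of all genes were both called and separate when higher and 5.36% when lower. Differences above 4-fold were found for 308 called genes that were higher and 325 that were lower. Above 8-fold there were 106 higher and only 10 lower. With each of the 7 samples left out in turn, 409 of the 747 and 405 of the 794 genes lost their call in at least 1 of the 7 fits, and the counts fell to 413 and 429 without negative 1 and to 448 and 523 without negative 2. Each gene is given by its probe set of greatest average signal. Of 94 called members of the lists and families that have several probe sets, 65 had another that differed by over 1.5 times less, and 8 had one of opposite sign, among them Lgr5 (-0.20), Cxcl12 (0.06), Ptch1 (0.07) and Wnt9a (0.04).

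Samples of the same fraction resembled each other more than samples across the sort. Pearson correlations over the genes tested were 0.969 to 0.985 among positive samples, 0.96 to 0.988 among negative samples and 0.896 to 0.949 between the groups. The 3' to 5' log2 ratio of the Gapdh control probe sets, a measure of RNA wholeness, was 0.88, 0.68, 0.78 and 0.36 in positive samples and 1.29, 1.54 and 0.31 in negative samples. Negative 1 and negative 2 therefore lay above every positive sample and negative 3 below them (exact two-sided permutation test of the group means, p = 0.314; the smallest p that 35 relabellings allow is 0.0286). With this ratio as a covariate 654 genes were called higher and 819 lower. Values without negative 1 and negative 2 together, a setting chosen after seeing the data that leaves negative 3 alone, are given below for 7 gene lists. By sample code, negative 1, negative 2 and negative 3 each directly precede positive 2, positive 3 and positive 4. The deviations of these neighbours from their group means correlated over genes at 0.21, 0.34 and 0.39, and a fit with neighbouring codes as blocks called 1454 genes higher and 1221 lower.

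Prom1 transcript was present in both fractions and higher in positive cells. It measured 11.99, 11.37, 10.82 and 11.29 in positive samples and 9.49, 9.71 and 10.52 in negative samples, a difference of 1.46, or 2.75-fold on a linear scale, with a 95% confidence interval of 0.60 to 2.32 (limma adjusted p = 0.0173). The groups did not overlap, but positive 3 and negative 3 were only a little apart. The call was lost without positive 1, negative 1 or negative 2, with adjusted p-values of 0.0846, 0.133 and 0.0864, and was kept with neighbouring codes as blocks (difference 1.25, adjusted p = 0.00739). Of 14 genes tested for protrusions and their partners, 3 were higher and none lower. Besides Prom1 these were Pkhd1, a protein of the primary cilium and its base, with a difference of 2.07 (adjusted p = 0.000328), and Pdzk1ip1, a small membrane protein of epithelial apical surfaces, with 2.02 (adjusted p = 0.0065), whose groups overlapped and whose call was lost with single samples left out (adjusted p up to 0.117). The paralogue Prom2 differed by -0.05 and the membrane-to-actin linker ezrin, Ezr, by 0.86 (adjusted p = 0.992 and 0.0944).

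**Figure D1:**
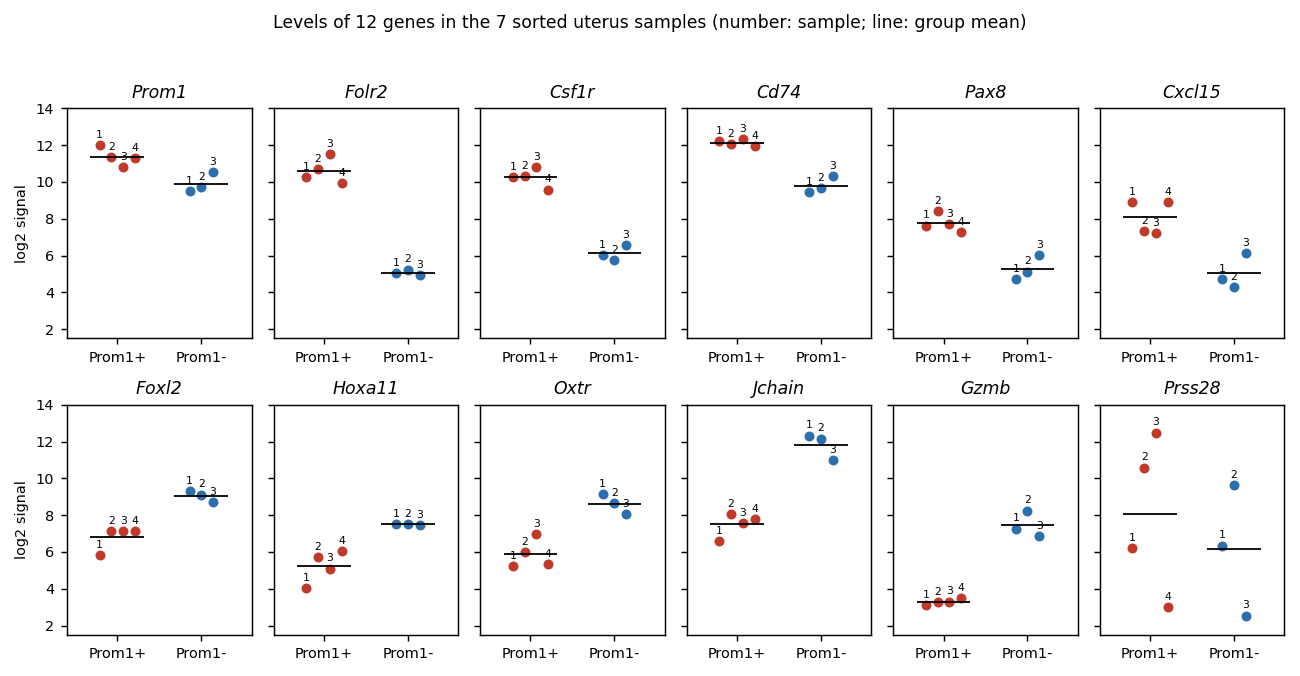
Log2 signal of 12 genes in each Prom1-positive (red, left) and Prom1-negative (blue, right) uterus sample; the digit is the sample number and the line the group mean. Prom1 differed by 1.46, the macrophage genes Folr2 and Csf1r by 5.52 and 4.12, and the plasma cell gene Jchain by -4.33, whereas Prss28 ranged from 3.0 to 12.5 within the positive samples.

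The largest rises were genes of tissue-resident macrophages. The 20 called genes with the largest rises and no overlap between groups were Fcna, Folr2, Fcrls, Ltc4s, Cd209f, Cd209g, Gpr34, Pf4, Cd163, F13a1, P2ry12, Ccl12, Il10, Mrc1, Tlr7, Csf1r, Clec10a, Cx3cr1, Hal and Cd5l, most of which are known from macrophages. Predicted, clone-named and unnamed genes were passed over, here and in the rankings of largest differences below. Folr2, a folate receptor of resident macrophages, measured 10.26, 10.69, 11.51 and 9.92 in positive samples and 5.03, 5.23 and 4.93 in negative samples. Every positive sample stood far above every negative one, a difference of 5.52, or 46-fold (SE 0.85, adjusted p = 7.36e-06). Fcna, a ficolin that recognises microbial sugars, measured 8.50, 9.66, 10.68 and 8.63 in positive samples and 4.06, 3.89 and 3.47 in negative samples, with a difference of 5.56 (SE 0.94, adjusted p = 3.62e-05). In bulk RNA fewer cells of a type and less RNA per cell cannot be told apart, here and in all groups below.

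Receptors that define the lineage moved together. Csf1r, the receptor for the growth factor on which macrophages depend, measured 10.28, 10.32, 10.82 and 9.58 in positive samples, against 6.03, 5.77 and 6.58 in negative samples (difference 4.12, SE 0.56, adjusted p = 8.2e-07). Mrc1, the mannose receptor, measured 11.70, 12.01, 12.27 and 11.41 in positive samples, against 7.79, 8.35 and 6.81 in negative samples (difference 4.2, SE 0.75, adjusted p = 9.32e-05). Cx3cr1, the fractalkine receptor, measured 10.40, 10.44, 10.20 and 9.82 in positive samples, against 5.86, 6.02 and 6.46 in negative samples (difference 4.10, SE 0.53, adjusted p = 3.29e-07), while its other probe set differed by 1.32. In all 3 the groups were separated by more than the range within either. Spi1, which encodes PU.1, the transcription factor of myeloid commitment, was named after its values were seen and was 2.84 higher in positive cells (adjusted p = 0.000179).

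The macrophage and monocyte list gave 16 of 18 tested members higher and none lower, with a median difference of 3.62, beside 5.31% of all genes higher and a median of 0.03. All 18 were higher without overlap between the groups, beside 16.1% of all genes. The mean level over the list was 10.4 to 10.8 in the positive samples and 6.89 to 7.51 in the negative samples. Among them were the complement genes C1qa, C1qb and C1qc with 3.42, 3.63 and 3.82, the Fc receptors Fcgr1 and Fcgr3 with 3.68 and 3.43, the lysosomal protein Cd68 with 3.60, the adhesion receptor Adgre1 (F4/80) with 3.31, the lipid receptor Trem2 with 3.20 and the monocyte chemokine receptor Ccr2 with 2.47. Cd14 and Lyz2, with 1.73 and 1.89, did not pass (adjusted p = 0.151 and 0.0538). The other probe set of Trem2 differed by 0.09 and that of Fcgr1 by 3.71. Leaving out any 1 sample kept 15 of the 16 calls, the exception being the integrin Itgam, which was lost without negative 1, negative 2 or positive 4 (adjusted p up to 0.125). With negative 3 alone as the negative sample, 3 members were called and the median was 2.97.

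The starts of several of these genes hold the letters of the core that PU.1 binds, and 3 that hold them are shown as examples. Sequences are the 250 bases before the RefSeq transcription start on GRCm38.p6, written 5' to 3' on the gene's strand. Capitals mark GAGGAA, or TTCCTC where it lies on the other strand. Fcna lies at chr2:25627975-25628224 on the minus strand, Mrc1 at chr2:14229164-14229413 on the plus strand and Cd68 at chr11:69666171-69666420 on the minus strand.
Fcna: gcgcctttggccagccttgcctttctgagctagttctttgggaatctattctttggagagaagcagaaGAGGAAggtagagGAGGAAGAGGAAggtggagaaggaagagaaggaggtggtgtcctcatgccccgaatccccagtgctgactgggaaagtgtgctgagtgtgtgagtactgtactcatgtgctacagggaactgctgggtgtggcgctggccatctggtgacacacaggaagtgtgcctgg
Mrc1: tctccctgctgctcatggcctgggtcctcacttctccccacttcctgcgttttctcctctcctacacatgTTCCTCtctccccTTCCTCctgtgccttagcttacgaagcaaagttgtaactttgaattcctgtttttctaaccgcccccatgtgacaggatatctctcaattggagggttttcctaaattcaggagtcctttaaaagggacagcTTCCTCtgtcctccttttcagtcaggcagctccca
Cd68: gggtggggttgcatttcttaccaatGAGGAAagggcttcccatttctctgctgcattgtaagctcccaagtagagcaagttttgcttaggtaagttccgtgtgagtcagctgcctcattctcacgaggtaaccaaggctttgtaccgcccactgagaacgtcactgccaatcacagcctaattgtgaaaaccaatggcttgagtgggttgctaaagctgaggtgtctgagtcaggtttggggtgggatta
The letters occurred 3 times each in the Fcna and Mrc1 windows and once in that of Cd68. In the 20 largest rises, 7 of 17 windows held them, against 3 of 16 windows of the 20 largest falls, and of the macrophage members that rose 10 of 15 windows did, from 13 genes matched in the table. Over all 32851 windows of that length the share was 23.3%. By gene, 9 of the 13 macrophage genes matched held the letters. A longer form of the core was tried first, and its counts are not given here. The genes were chosen by their calls in these same data, and the shares were not tested against each other. A match is a description of letters, not a binding site. Whether PU.1 acts on these genes was not tested.

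Several gene families of myeloid surface receptors held members that rose, beside 5.31% of all genes higher and 5.64% lower. Of 8 tested P2ry genes for nucleotide receptors, P2ry12, P2ry13, P2ry6 and P2ry10b were higher (4.56, 3.75, 3.77 and 2.08) and P2ry14 was lower (-1.90, adjusted p up to 0.0901 with single samples left out). P2ry12, best known from microglia in brain, measured 6.81, 7.14, 7.47 and 6.92 in positive samples and 2.51, 2.28 and 2.79 in negative samples (SE 0.51, adjusted p = 1.51e-08), so that in negative cells it lay below the median of its arrays. Among 8 genes of Fc gamma and Fc-like receptors, Fcgr1, Fcgr2b, Fcgr3, Fcgr4 and Fcrls were higher, by 3.68, 3.05, 3.43, 3.30 and 5.12. Of 13 Ms4a genes 5 were higher (Ms4a4c, Ms4a6b, Ms4a6c, Ms4a6d and Ms4a7) and Ms4a4d was lower, a call lost without negative 1 or negative 2 (adjusted p up to 0.0644). Tlr1, Tlr2 and Tlr7, receptors for microbial lipids and RNA, were higher by 3.30, 2.64 and 4.15 out of 10 Tlr genes. These families were chosen after their values were seen.

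Antigen presentation genes were also higher. Of 12 tested MHC class II and dendritic genes 6 were higher (5.31% of all genes) and none lower, with a median of 2.31. They were Ciita, the master regulator of the class II genes (2.98, adjusted p = 3.27e-05), H2-Ab1, H2-DMa, H2-DMb1, the invariant chain Cd74, and Batf3, a transcription factor of cross-presenting dendritic cells (2.28). Cd74 measured 12.21, 12.05, 12.33 and 11.94 in positive samples and 9.43, 9.65 and 10.32 in negative samples. The groups lay apart by more than their own ranges, with a difference of 2.33 (SE 0.63, adjusted p = 0.00899). The defining dendritic genes Itgax, Flt3 and Zbtb46 differed by 0.59, 0.66 and -0.03 and did not pass. Without negative 1 the calls of Cd74 and H2-Ab1 were lost (adjusted p = 0.0656 and 0.0747), and that of H2-Ab1 also without negative 2 (adjusted p = 0.0745). Pan-leukocyte genes gave 5 of 12 higher, Laptm5, Tyrobp, Fcer1g, Lcp1 and Rac2, with a median of 1.97, and Ptprc (CD45) itself measured 11.08 to 11.41 in positive samples and 9.87 to 9.97 in negative samples without passing (1.36, adjusted p = 0.36). Of these 5, Lcp1 and Fcer1g kept their call with any 1 sample left out.

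Several lymphocyte and mast cell genes ran the other way. Among 19 tested genes of T and NK cells, positive samples were lower for 7 and higher for Cd4 (0.85), with a median of -1.31. With negative 3 as the only negative sample 1 was lower and the median was -0.74. Gzmb, the cytotoxic protease granzyme B that uterine natural killer cells make, measured 3.12, 3.29, 3.30 and 3.51 in positive samples and 7.27, 8.25 and 6.85 in negative samples (difference -4.15, SE 0.72, adjusted p = 5.49e-05). In positive cells Gzmb lay below the median of its arrays. Il2rb, the interleukin receptor chain on which NK cells depend, Nkg7 and Gzma were lower, with differences of -3.61 (-0.56 and -1.49 by the other probe sets of Il2rb), -2.97 and -2.82, as were Xcl1, Cd3g and Eomes, whereas Cd3e differed by -0.19 (adjusted p = 0.935). The calls of Cd3g, Cd4 and Eomes were each lost with several single samples left out, with adjusted p-values up to 0.375. Jchain, the chain that joins IgA and IgM, showed the largest fall among the called genes with separate groups that were ranked. It measured 6.59, 8.06, 7.58 and 7.80 in positive samples and 12.33, 12.16 and 11.01 in negative samples, a difference of -4.33 (SE 0.76, adjusted p = 6.02e-05). It stood beside the immunoglobulin light chain genes Iglv1 and Igk-V21 (-3.78 and -3.65), although the other probe sets of Igk-V21 differed by -0.29 and -0.01, while the other 8 B and plasma cell genes tested did not pass. Of 10 eosinophil and mast cell genes the mast cell proteases Cpa3, Cma1 and Mcpt4 were lower (-3.46, -2.38 and -1.62), and of these only Cpa3 kept its call with any 1 sample left out. That list had a median of -0.49, with 7 members below 0 and 3 above. Among those above were Kit and Alox15, with differences of 1.21 and 1.53 that did not pass (adjusted p = 0.47 and 0.468).

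Chemokine and cytokine genes were called in both directions. Of 38 tested, 10 were higher and 2 lower, with a median of 1.11. Ccl3, Ccl4, Ccl9 and Tnf were higher by 2.81, 2.91, 2.83 and 2.63, and Ccl24 and Cxcl13 by 3.12 and 3.25. Il10, which damps inflammation, was outside this list and measured 8.0, 7.99, 8.42 and 6.87 in positive samples and 3.55, 3.48 and 3.0 in negative samples (4.48, SE 0.65, adjusted p = 2.54e-06). The 2 that were lower were Ccl11, eotaxin (-2.23), and Cxcl12, a stromal chemokine (-2.27). Of the 12 calls, 6 were kept with any 1 sample left out (Ccl4, Ccl9, Ccl11, Ccl24, Cxcl15 and Tnf).

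For epithelial genes the differences were smaller than for macrophage genes. All 22 tested pan-epithelial genes had a difference above 0, with a median of 1.18 and a range of 0.78 to 1.96, and 8 passed: Elf3, Grhl2, St14, Spint1, Spint2, Rab25, Ehf and Prss8. Grhl2, a transcription factor that maintains epithelial junctions, measured 8.52, 8.75, 7.89 and 8.47 in positive samples and 7.08, 6.97 and 7.31 in negative samples (difference 1.29, SE 0.29, adjusted p = 0.00161). Its groups did not overlap, and its other probe set differed by 0.18. Epcam, the adhesion molecule by which epithelium is usually sorted, measured 11.22, 10.88, 10.30 and 11.25 in positive samples and 9.59, 9.78 and 10.80 in negative samples, where negative 3 lay within the positive range (difference 0.86, adjusted p = 0.263). Cdh1, Krt8, Krt18, Krt19 and Krt7 differed by 1.14, 0.78, 1.24, 0.79 and 1.08 and did not pass, and in each negative 3 overlapped with the positive samples. Prss8, a membrane-anchored protease (1.96), and Grhl2 kept their calls with any 1 sample left out. The other 6 did not, with adjusted p-values up to 0.33, and the count was 4 without positive 1, 2 without negative 1 and 5 without negative 2. With negative 3 as the only negative sample none was called and the median was 0.32, and with neighbouring codes as blocks 15 were called.

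Both compartments of the uterine epithelium held genes that were higher in positive cells. Of 14 tested gland genes 6 were higher and 1 lower, with a median of 1.69. Of 15 luminal genes 3 were higher and none lower, with a median of 0.70. Over all genes 5.31% were higher and 5.64% lower. Cxcl15, or lungkine, a chemokine made by the glands, measured 8.91, 7.33, 7.22 and 8.91 in positive samples and 4.73, 4.30 and 6.15 in negative samples (3.03, SE 0.55, adjusted p = 0.000102). Foxa2, which mouse uterus needs to form glands, measured 7.16, 6.10, 6.42 and 6.39 in positive samples and 4.48, 4.79 and 4.46 in negative samples (1.94, adjusted p = 0.0278). For both, all positive samples lay above all negative ones. Wfdc3, Ttr, Lgr5 and Sox9 were higher by 2.09, 2.62, 1.53 and 1.48, and Axin2, a feedback gene of Wnt signalling, was lower (-1.46). Other probe sets differed by 0.13 for Wfdc3, 1.86 for Ttr, -0.20 for Lgr5 and -0.50 for Axin2, and by 0.28 and 2.04 for Sox9. The calls of Foxa2, Lgr5 and Sox9 were lost with single samples left out (adjusted p up to 0.105, 0.17 and 0.09), and without negative 3 the list held 3 higher, whereas with negative 3 as the only negative sample it held 4, with a median of 2.02. Of the luminal genes, Msx1, a homeobox gene needed for implantation, was higher by 2.06 (adjusted p = 0.0026), Ihh, Indian hedgehog, by 1.64 and Padi1, an enzyme that converts arginine to citrulline, by 1.40. Padi1 measured 10.37, 9.29, 9.06 and 10.27 in positive samples and 7.39, 7.53 and 10.12 in negative samples, and its difference was -0.38 with negative 3 as the only negative sample.

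Pax8 and Foxl2, the only called genes of 7 tested for oviduct and ovary, moved in opposite directions. Pax8, a transcription factor of Müllerian duct epithelium, measured 7.62, 8.40, 7.72 and 7.27 in positive samples and 4.71, 5.13 and 6.02 in negative samples. The lowest positive sample stood above the highest negative one, with a difference of 2.47, or 5.53-fold (SE 0.26, adjusted p = 2.87e-09). Foxl2, in uterus a gene of stroma and muscle, measured 5.84, 7.14, 7.15 and 7.11 in positive samples and 9.30, 9.12 and 8.71 in negative samples (difference -2.23, SE 0.23, adjusted p = 2.3e-09), while its other probe set differed by -0.29. Both kept their calls with any 1 sample left out (adjusted p up to 9.27e-07). Tight junction genes gave 3 of 22 higher and 1 lower, beside 5.31% and 5.64% of all genes. These were Cldn8, Cldn10 and Cldn23 (3.11, 1.97 and 1.10), and Cldn15 (-1.66). Keratins gave 3 of 19 higher, Krt23, Krt6b and Krt80 (2.83, 2.59 and 1.79), and mucins and secreted defence genes 4 of 18, Wfdc15b, Wfdc18, Muc20 and Defb1 (2.95, 2.56, 1.51 and 1.24). Ciliated cell genes gave none of 13 higher and 2 lower, Tppp3 and Rfx3, with a median of -0.08, and squamous genes of cervix and vagina gave no call among 12. The calls of Cldn23, Krt6b, Wfdc18, Defb1, Tppp3 and Rfx3 did not survive every single sample left out.

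Genes tied to ovarian hormones were called in both directions, beside 10.9% of all genes. Of 9 tested steroid receptors and coregulators only Pgr, the progesterone receptor, passed: 9.56, 9.68, 9.60 and 9.78 in positive samples and 11.33, 11.30 and 10.53 in negative samples (-1.40, adjusted p = 0.0433, up to 0.195 with single samples left out). Esr2 differed by -0.15 but lay below the array median in all 7 samples, and Nr3c1, the glucocorticoid receptor, differed by 0.29. The oestrogen receptor gene Esr1 was not among the genes tested. Of 18 oestrogen response genes 3 were higher and none lower, the water channels Aqp5 and Aqp8 (2.18 and 3.25) and Padi1, none of which kept its call with every sample left out in turn. Of 15 progesterone response genes Ihh was higher and Ptch1, Hoxa10 and Klf9 were lower. The calls of Ihh and Hoxa10 were kept with any 1 sample left out, and those of Ptch1 and Klf9 were not (adjusted p up to 0.142 and 0.191).

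**Figure D2:**
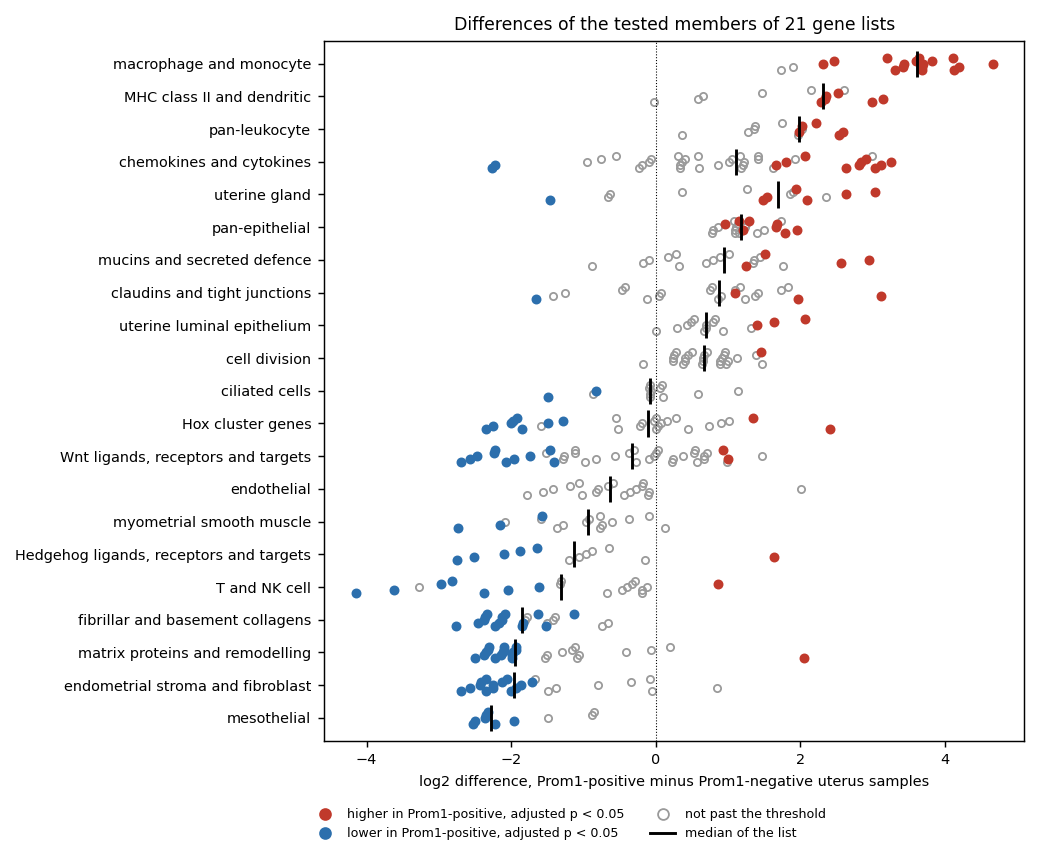
Log2 difference of each tested member of 21 gene lists between Prom1-positive and Prom1-negative uterus samples; filled points passed an adjusted p of 0.05 (red higher, blue lower in Prom1-positive) and the bar is the list median. Medians run from 3.62 for macrophage genes to -2.27 for mesothelial genes, and pan-epithelial genes lie around 1.18.

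Hedgehog genes split between the ligand and the receptor and target genes. Ihh, which uterine epithelium sends to the stroma, measured 5.35, 5.28, 4.26 and 5.39 in positive samples and 3.37, 3.26 and 3.66 in negative samples (adjusted p = 0.000474). The stromal receptor and target genes were lower, with differences of -1.88 for Ptch1 and -1.64 for the co-receptor Cdon. The transcription factors Gli1, Gli2 and Gli3 differed by -2.52, -2.75 and -2.10. Other probe sets differed by 0.07 for Ptch1, -0.14 for Cdon, -2.01 for Gli2 and -0.02 for Gli3. In all, 1 of 12 tested Hedgehog genes was higher and 5 were lower, with a median of -1.13. Gli1, a direct target of the pathway, measured 4.55, 5.64, 5.81 and 5.41 in positive samples and 8.23, 8.36 and 7.04 in negative samples, with no overlap (adjusted p = 1.72e-05). The calls of Ptch1 and Cdon were lost with single samples left out (adjusted p up to 0.142 and 0.0699).

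Wnt genes were lower for ligands, a receptor and secreted modulators. Of 38 tested, 2 were higher and 10 lower, with a median of -0.33, beside 5.31% and 5.64% of all genes. Those that were lower included the ligands Wnt5a, Wnt5b and Wnt9a (-1.74, -1.96 and -2.23), the receptor Fzd2 (-2.57), the inhibitors Sfrp1 and Sfrp2 (-2.08 and -2.69), and the amplifiers Rspo1 and Rspo3 (-2.23 and -2.47). The feedback inhibitors Axin2 and Nkd2 were also lower, while Fzd10 and Sp5, a target gene, were higher by 0.94 and 1.0. Of these 12 calls, 8 were kept with any 1 sample left out (Nkd2, Rspo3, Fzd10 and Sp5 were not). Notch genes gave no call among 17 tested, the nearest being Lfng (1.02, adjusted p = 0.0649) and Hey1 (1.35, adjusted p = 0.102). Stem and progenitor genes gave 3 of 22 higher, Lgr5, Olfm4 and Sox9, and 2 lower, Lgr6 and Axin2. Lgr6 measured 3.45, 4.30, 3.66 and 3.56 in positive samples and 5.42, 5.55 and 4.05 in negative samples (-1.26, adjusted p = 0.00098), and Olfm4 measured 5.77, 4.62, 4.52 and 5.28 in positive samples and 3.10, 3.31 and 3.25 in negative samples (1.83, adjusted p = 0.0383, up to 0.14 with single samples left out).

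Hox genes, which give the reproductive tract its position along the body axis, were called in both directions, beside 10.9% of all genes. Of 26 tested, Hoxb6 and Hoxb8 were higher and 8 were lower: Hoxa9, Hoxa10 and Hoxa11 of the A cluster and Hoxd4, Hoxd8, Hoxd9, Hoxd10 and Hoxd11 of the D cluster. Hoxa11, which mouse uterus needs for stromal and gland development, measured 4.05, 5.73, 5.10 and 6.06 in positive samples and 7.52, 7.51 and 7.45 in negative samples (-2.26, SE 0.31, adjusted p = 1.34e-06). Hoxd10 measured 5.28, 5.27, 4.89 and 5.43 in positive samples and 8.05, 7.16 and 7.48 in negative samples (-2.35, SE 0.26, adjusted p = 9.17e-09). Hoxb8 measured 6.53, 7.74, 6.06 and 6.22 in positive samples and 4.26, 5.54 and 2.89 in negative samples (2.41, SE 0.37, adjusted p = 6.35e-06). None of the 3 overlapped between the groups. Of the 10 calls, 7 were kept with any 1 sample left out. Hoxa9, Hoxb6 and Hoxd11 were not, Hoxa9 falling to -0.66 without negative 3 (adjusted p = 0.416). All 8 Hox genes that were lower were also below, and Hoxb8 was also above, the mean difference of the other 5 tissues (adjusted p up to 0.0103 in that contrast, which is described below).

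**Figure D3:**
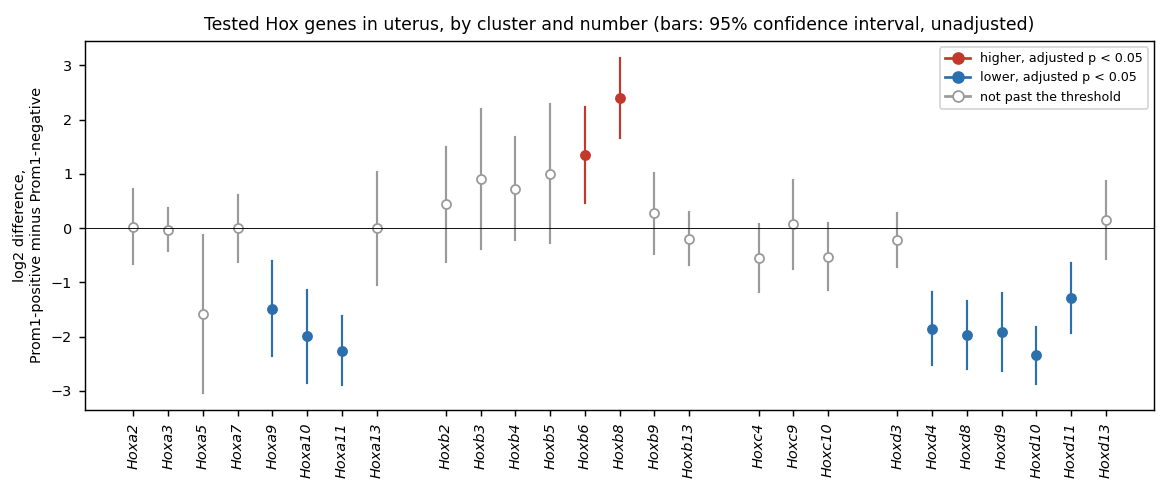
Log2 difference between Prom1-positive and Prom1-negative uterus samples for the 26 Hox genes tested, ordered by cluster and number, with unadjusted 95% confidence intervals. Hoxa9 to Hoxa11 and Hoxd4 to Hoxd11 lie between -1.29 and -2.35, whereas Hoxb8 lies at 2.41.

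Stromal genes were lower in positive cells. Of 22 tested genes of endometrial stroma and fibroblasts 14 were lower and none higher, with a median of -1.96, beside 5.64% of all genes lower. The mean level over the list was 6.66 to 7.43 in positive samples and 8.63 to 8.95 in negative samples. Twist1, a transcription factor of mesenchyme, measured 4.35, 4.73, 5.04 and 4.40 in positive samples and 7.38, 7.66 and 6.58 in negative samples (-2.57, SE 0.37, adjusted p = 2.52e-06). Pdgfra, a receptor for platelet-derived growth factor on fibroblasts, was lower (-2.69, adjusted p up to 0.0642 with single samples left out), as were the transcription factors Prrx1 (-2.25) and Osr2 (-2.06), while Vim and Dcn differed by -0.05 and -0.80 and did not pass (adjusted p = 0.997 and 0.691). The other probe set of Osr2 differed by -0.14, and those of Prrx1 by -0.66 to -2.50. Collagen genes gave 15 of 22 lower and none higher, with a median of -1.85. In 21 of the 22 the positive samples lay below without overlap, beside 15.1% of all genes. Col1a2, a chain of fibrillar type I collagen, measured 3.33, 4.40, 5.15 and 4.35 in positive samples and 6.99, 7.06 and 6.27 in negative samples (-2.47, SE 0.36, adjusted p = 3.41e-06). Matrix genes gave 15 of 26 lower, among them Thbs2, Lox, Loxl1, Mmp2 and Mmp3 (-2.5, -2.32, -2.37, -2.10 and -2.31), and 1 higher, Mmp7, a metalloproteinase of epithelium, by 2.05 (adjusted p = 0.061 without negative 3). With any 1 sample left out, 8 of the 14 stromal, 6 of the 15 collagen and 10 of the 16 matrix calls were kept. Without negative 1 there were 8 stromal and 7 collagen genes lower. With negative 3 as the only negative sample there were 2 of each, with medians of -1.63 and -1.62.

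Genes of the outer and muscular layers were also lower. Of 10 tested mesothelial genes 7 were lower and none higher, with a median of -2.27. In all 10 the positive samples lay below without overlap, beside 15.1% of all genes. Wt1, a transcription factor of mesothelium and uterine stroma, measured 5.24, 5.72, 6.29 and 5.22 in positive samples and 8.60, 8.47 and 7.35 in negative samples (-2.52, SE 0.38, adjusted p = 4.13e-06). The count was 4 without negative 2, and with negative 3 as the only negative sample none was called and the median was -1.73. Of 16 smooth muscle genes 3 were lower, Oxtr, Synpo2 and Des. Oxtr, the oxytocin receptor that drives contraction, measured 5.22, 5.99, 6.97 and 5.35 in positive samples and 9.13, 8.64 and 8.08 in negative samples (-2.73, or 6.64-fold lower, SE 0.26, adjusted p = 6.74e-10), while its other probe set differed by -0.12. Acta2 and Myh11, the main contractile genes, differed by -0.77 and -1.28 and did not pass (adjusted p = 0.639 and 0.436). Endothelial genes gave no call among 18 tested, with a median of -0.63, and Pecam1 measured 4.49 to 5.97 in positive samples and 4.01 to 6.88 in negative samples. Lymphatic genes gave 3 of 6 lower, Mmrn1, Reln and Pdpn (-2.76, -2.47 and -1.89), and the other probe set of Mmrn1 differed by -0.16. The rest did not pass: Prox1 differed by -1.43, Flt4 by 0.01 and Lyve1 by 1.77 (adjusted p = 0.145, 0.999 and 0.204). Lyve1 went the other way without overlap, at 8.8 to 11.1 in positive samples and 7.99 to 8.13 in negative samples. Mmrn1 kept its call with any 1 sample left out, and Reln and Pdpn did not (adjusted p up to 0.0864 and 0.116), nor did Des (adjusted p up to 0.114).

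The 20 largest falls with separate groups also held genes of other kinds. Dnm3os, the host transcript of a microRNA cluster of mesenchyme in mouse, measured 3.06, 3.94, 4.13 and 3.62 in positive samples and 7.48, 7.18 and 6.87 in negative samples (-3.49, or 11.2-fold lower, SE 0.33, adjusted p = 6.74e-10). Lsamp, a cell adhesion protein first known from the limbic system, measured 3.27, 3.45, 3.94 and 4.19 in positive samples and 6.96, 6.68 and 7.19 in negative samples (-3.23, SE 0.34, adjusted p = 3.68e-09). Rorb, a nuclear receptor, measured 4.52, 4.76, 4.95 and 4.92 in positive samples and 8.22, 7.86 and 7.11 in negative samples (-2.94, SE 0.51, adjusted p = 4.67e-05). In each the groups were separated by more than the range within either. Tenm3, Il13ra2, Ptger3, Kcnd3, Pkia, Armh4, Sspn, Vit and Pcdhb3 were lower, with differences between -2.86 and -2.99, where other probe sets differed by 0.16 at most for Kcnd3, -0.90 for Pkia and -0.73 for Sspn. Of 9 tested beta protocadherins, adhesion genes of 1 cluster, 7 were lower, from -1.31 for Pcdhb21 to -2.86 for Pcdhb3, and the call of Pcdhb21 was lost with single samples left out (adjusted p up to 0.117). Il13ra2, a decoy receptor for interleukin 13, lost its call without negative 2 (adjusted p = 0.0644).

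Of 25 tested BMP and TGF-beta genes 5 were called, and of 29 growth factor genes 3, beside 10.9% of all genes. Pdgfb and Tgfb1, growth factors that myeloid and other cells secrete, were higher by 2.65 and 2.01 (adjusted p = 0.000116 and 0.00257), and Bmp7, a bone morphogenetic protein, was lower (-1.73, adjusted p = 0.000496). Id2 and Id3, inhibitors of differentiation, went opposite ways, with 1.27 and -1.19, although the call of Id3 was lost with single samples left out (adjusted p up to 0.127). Ptger3, a prostaglandin E2 receptor, measured 2.67, 3.03, 3.68 and 3.28 in positive samples and 5.85, 6.47 and 6.04 in negative samples (-2.96, SE 0.44, adjusted p = 3.76e-06), while its other probe set differed by -0.18. Of 26 cell division genes 25 had a difference above 0, with a median of 0.66, but only Aurka passed (1.46, adjusted p = 0.0128, up to 0.0892 with single samples left out). Of 24 cancer driver and brake genes Mycn and Mdm2 were higher by 1.56 and 0.83, both lost with single samples left out. Immediate early genes, which respond to dissociation, gave no call among 21 tested, with a median of -0.06, and Fos differed by -0.03.

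**Figure D4:**
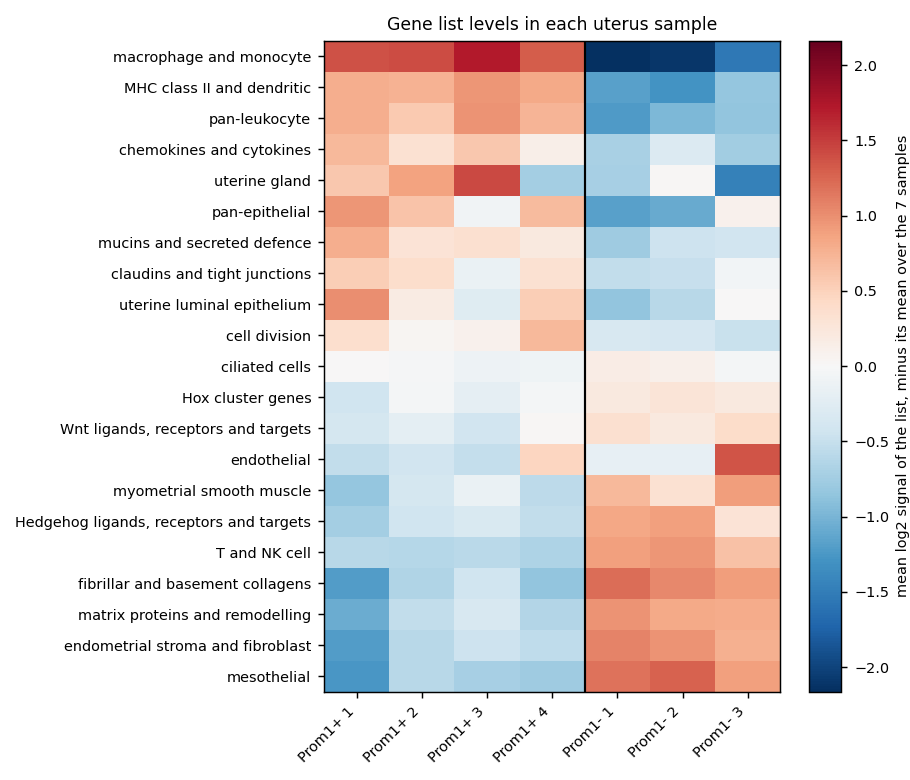
Mean log2 signal of each gene list in the 4 Prom1-positive and the 3 Prom1-negative uterus samples, minus the mean of that list over the 7 samples (red above, blue below). Macrophage genes split the samples by fraction, while gland genes are low in Prom1-positive sample 4 and Prom1-negative sample 3 alike and pan-epithelial genes of Prom1-negative sample 3 sit at 8.61, above the lowest Prom1-positive sample at 8.45.

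Some gland products varied far more between samples than between fractions. Prss28, a secreted protease of uterine glands, measured 6.2, 10.58, 12.48 and 3.0 in positive samples and 6.34, 9.62 and 2.54 in negative samples (difference 1.90, adjusted p = 0.34). Its neighbour Prss29 measured 7.51, 10.62, 12.20 and 3.92 in positive samples and 7.14, 9.63 and 3.36 in negative samples. Spink1, a trypsin inhibitor, measured 8.89, 9.67, 11.74 and 3.37 in positive samples and 6.47, 8.92 and 2.81 in negative samples. Positive 4 and negative 3, neighbours by code, were the lowest of their groups for all 3 genes. Positive 3 and negative 2, also neighbours, were the highest. Tissue kallikrein genes followed another order. Klk1 measured 13.27, 12.56, 10.34 and 5.49 in positive samples and 8.48, 7.91 and 5.26 in negative samples (3.20, adjusted p = 0.0453). That call was lost in 6 of the 7 fits that leave out 1 sample (adjusted p up to 0.295), with differences of 2.22 to 4.84, and the other probe sets of Klk1 differed by -0.26 and 3.24. Klk1b24 measured 9.95, 8.49, 5.49 and 3.16 in positive samples and 3.13, 2.69 and 2.78 in negative samples (3.91, adjusted p = 0.000155). Of 8 tested genes of the Klk1 and Klk1b family 4 were higher, but these genes are near-identical copies whose probes may share signal. All genes of this paragraph were singled out after their values were seen.

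The uterus difference was then set against the mean difference of the other 5 tissues, to ask what of the above departs from the same sort elsewhere. By the interaction contrast of the same fit, 721 genes (5.12%) lay above and 459 (3.26%) below (8.38% in all) the mean of prostate, lung, intestine, liver and stomach. Of the 747 genes higher in positive uterus cells 537 were also above, and of the 794 lower 420 were also below. The 5 largest excesses were Gpr34 (4.69, adjusted p = 9.67e-06), Cd22 (4.68, adjusted p = 1.39e-06), P2ry12 (4.65, adjusted p = 9.82e-08), Ltc4s (4.61, adjusted p = 0.000554) and Ifi209 (4.60, adjusted p = 4.99e-05). Cd22, a sialic acid receptor known mainly from B cells, measured 7.73, 7.76, 8.10 and 7.10 in positive uterus samples and 3.63, 4.29 and 4.22 in negative ones, while its difference was -2.71 in liver, -1.44 in prostate and 0.29 in stomach. Its other probe set differed by 1.38 in uterus. The 5 largest deficits were Rorb (-3.40, adjusted p = 2.65e-05), Dnm3os (-3.13, adjusted p = 7.99e-08), Tmem45a (-3.02, adjusted p = 0.00414), Lsamp (-3.01, adjusted p = 1.64e-07) and Tenm3 (-2.92, adjusted p = 0.00206). None of these 10 calls was lost with any 1 uterus sample left out, and those of Ltc4s, Rorb, Tmem45a and Tenm3 were lost with negative 3 as the only negative sample (adjusted p = 0.0974, 0.0606, 0.25 and 0.226).

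Macrophage genes were among those that departed from the mean of the other tissues. Of the 18 members 13 lay above the mean of the other tissues and none below. Their median difference was 3.62 in uterus, 1.35 in prostate, 1.08 in lung, 0.39 in intestine, -2.51 in liver and 0.49 in stomach. For MHC class II and dendritic genes 6 of 12 lay above and none below, with medians of 2.31 in uterus, -0.25 in prostate, 0.32 in lung, -0.32 in intestine, -2.38 in liver and 0.59 in stomach. Liver ran the other way for both groups of genes, and how far it sets the excess over the mean of 5 tissues was not tested. Of the 20 largest rises, Cd209g, Hal and Cd5l differed by 5.15, 4.69 and 4.16 in lung. In uterus they differed by 4.89, 3.99 and 3.98. The other rises were all larger in uterus than in lung, though Fcna and Cd209f reached 5.06 and 4.70 in lung. Stromal genes lay below for 7 of 22, with medians of -1.96 in uterus, -1.92 in prostate, -0.31 in lung, 0.00 in intestine, -0.26 in liver and -0.04 in stomach. For T and NK cell genes the median was -1.31 in uterus and between -2.44 in liver and -0.06 in stomach elsewhere, and only Cd4 departed from the mean of the other tissues. Gzmb and Nkg7 differed from that mean by -0.90 and -0.07 (adjusted p = 0.635 and 0.98). Pan-epithelial genes lay above for 2 of 22, Grhl2 and St14, with medians of 1.18 in uterus, 0.72 in prostate, -0.49 in lung, 0.01 in intestine, 0.28 in liver and 0.60 in stomach. Prom1 itself did not depart from the mean of the other tissues (0.62, adjusted p = 0.539). These tissues were not alike: Prom1 differed by 1.76 in prostate, 1.65 in stomach, 0.53 in intestine, 0.23 in liver and 0.01 in lung.

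**Figure D5:**
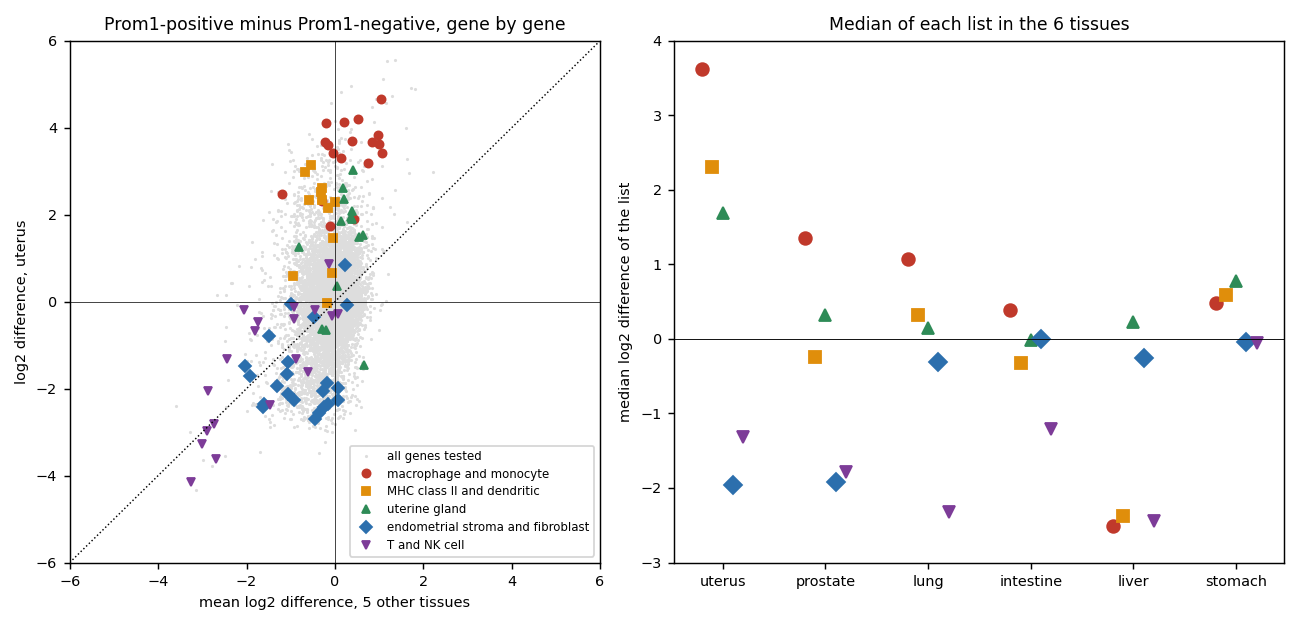
Left, log2 difference between Prom1-positive and Prom1-negative samples in uterus (vertical) against the mean of that difference in 5 other tissues (horizontal) for all genes tested and the members of 5 lists, with the line of equal difference dotted; right, the median difference of each list in every tissue. Macrophage genes lie well above the line, with a median of 3.62 in uterus and -2.51 in liver, and T and NK cell genes lie near it.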

How the data were processed

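Sorted mouse cells were measured on Affymetrix arrays. The deposited values are log2 signals that the authors made with RMA in Partek 6.6, per the submitters' processing notes; their RMA settings and any batch correction are not given in the sources used here. The series matrix was taken as it stands. Of 45141 probe sets, 28898 carried a single gene symbol, and each of 17097 genes was represented by its probe set of greatest average signal across the series. A gene was tested when it lay above the array median in at least 3 of 51 sorted arrays, which left 14081.

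Group means of the 12 sorted groups were fitted with limma 3.58.1 in R 4.3.3 (lmFit, eBayes), with no block, and p-values were adjusted by Benjamini-Hochberg over all genes tested at 0.05. The uterus contrast was positive minus negative, and an interaction contrast subtracted the mean of the same difference in the other 5 tissues. Single measures of array quality were compared by exact permutation. On simulated data of 14081 genes with 200 changed, the uterus contrast recovered 19% of log2 changes of 1 and 80% of changes of 2. It made 4 false calls. The simulated noise was independent between samples and of equal spread in all groups, which these arrays need not meet. These rates therefore may not hold for the data. The number of arrays limits the precision.

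Genes named in full were the 20 largest called rises and falls without overlap, the 5 largest interaction calls each way and the called members of 47 gene lists. In these rankings predicted, clone-named and unnamed genes were passed over. The members and lists were chosen with earlier results of these data known. Title numbers did not pair positive and negative samples (correlations of deviations -0.155, 0.103 and -0.344). Promoter windows and the build GRCm38.p6 are from RefSeq. Alternatives covered the arrays fitted, the probe set rule, the filter, scaling, covariates, weights, blocks and each sample left out.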

Additional observations from a re-analysis of the deposited data

Results flagged for a closer look

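The 10 genes with the largest departures from the other tissues are those of the interaction contrast above. The uterus difference exceeded the mean of the other 5 tissues by 4.69 for Gpr34, 4.68 for Cd22, 4.65 for P2ry12, 4.61 for Ltc4s and 4.60 for Ifi209, and the uterus difference minus that mean was -3.40 for Rorb, -3.13 for Dnm3os, -3.02 for Tmem45a, -3.01 for Lsamp and -2.92 for Tenm3 (limma interaction contrast). In all, 1180 genes departed from that mean.

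Single samples stood apart within the positive group for a pair of genes. Ccl12, a monocyte chemokine, was lowest in positive 4 at 9.74, where the other positive samples measured 10.52 to 10.62, and all negative samples lay at or below 6.30. Tenm3, an adhesion protein, was lowest in positive 1 at 4.92, where the other positive samples measured 6.47 to 6.77. By Dixon's test 2 of 48 genes looked at went beyond the critical value, and chance alone passes about 1 in 20 such groups.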

How the results depend on the processing

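Over 24 other settings, 2 of 238 named gene results changed sign, Padi1 (-0.38) and Atp12a (0.011), both with negative 3 as the only negative sample, a setting chosen after seeing the data. That setting called 0.74% of genes higher, 0.84% lower and 1.24% against other tissues, where all arrays called 5.31%, 5.64% and 8.38%, and Prom1 differed by 0.85 (adjusted p = 0.877). With each sample left out the counts were 413 to 752 higher, 429 to 720 lower and 648 to 1169 against other tissues, and Prom1 differed by 1.25 to 1.76; negative 1 and negative 2 gave the lowest counts. The replicate block by title number called 497 genes higher, 539 lower and 659 against other tissues, with Prom1 at 1.48 (adjusted p = 0.0812). Neighbouring sample codes as blocks called 1454 higher, 1221 lower and 2266 against other tissues. The 7 uterus arrays alone called 1619 higher and 1605 lower. Array weights called 3160 higher, 2791 lower and 5506 against other tissues. The fit without arrays of upper quartile under 6 called 1345 higher, 1131 lower and 2222 against other tissues. With all 117 arrays Prom1 kept its 1.46 with an adjusted p of 0.628. The cause of these shifts was not tested. The other settings kept these counts within 1.5 times. Of the 40 largest rises and falls, 20 kept their call throughout, and Il13ra2 was the only one lost outside the setting with negative 3 alone. Genes such as P2ry12 in negative cells and Gzmb in positive cells lie below the median of their arrays, so their differences rest on 1 dim group.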

Other observations

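Lectin genes formed a further pair of families. Of 20 tested Clec genes, a family of C-type lectins, 6 were higher and 2 lower in positive cells, and of 6 Cd209 genes, lectins of dendritic cells and macrophages, 2 were higher. These families were chosen after their values were seen.

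Secreted products varied within both fractions. Serpina1c, a protease inhibitor, measured 2.59, 10.88, 8.86 and 2.71 in positive samples and 7.78, 8.08 and 2.55 in negative samples, and the neutrophil protein S100a8 measured 9.88, 7.09, 9.37 and 6.77 in positive samples and 8.35, 10.05 and 6.00 in negative samples. Muc4, a membrane mucin, measured 7.54, 5.85, 5.23 and 8.08 in positive samples and 4.41, 3.81 and 7.77 in negative samples. The highest Muc4 values stood in positive 4 and negative 3, where Prss28 and Spink1 were lowest.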
